A study of Mus musculus with 8 samples.

Results

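The regions bound by FOS were examined around 9 genes that microglia use to sense nucleotides or display at their surface: P2ry12, P2ry13, P2ry6, P2rx4, P2rx7, Entpd1, Tmem119, Gpr34 and Selplg. Every region of the deposited table whose centre lay inside one of these genes or within 100 kb of its body was taken, which gave 110 of 32773 regions. The table came from chromatin immunoprecipitation with sequencing (ChIP-seq) of FOS in microglia sorted by flow cytometry from the cortex of 4 mice. All 4 mice were at postnatal day 30 and had received IL-33 into a ventricle on 1 side of the brain 4 h earlier. A FOS library and its input were made from each mouse. Strain, sex and the markers used to sort are not given in the sources. No vehicle-injected mouse was analysed here, so nothing below compares treated with untreated microglia. The table merges all libraries and has no value per mouse, so no value has a replicate error, and depth per library is unknown.

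Per the file headers the table merges 2 lists, the FOS peaks and a list whose name sets IL-33 against vehicle, called the IL-33 list. Which assay produced the IL-33 list is not stated. A region is termed shared when it holds peaks of both lists, and FOS-only or IL-33-only otherwise. Each FOS peak carries a number of calls between 1 and 4 in its name. This number is taken to count the FOS libraries with the peak, which its range allows but no source states. The score is the authors' peak statistic, of unstated scale, used only to rank regions within this table. In shared regions it was multiplied by the number of merged peaks and divided by the number of FOS peaks, because IL-33 list peaks enter the authors' average as zeros.

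FOS is a subunit of AP-1, a dimeric transcription factor that stimulated cells induce rapidly. Extracellular ATP, ADP and UDP signal damage or activity to microglia through P2Y receptors, which are coupled to G proteins, and P2X receptors, which are ATP-gated cation channels. Ectoenzymes such as CD39, the product of Entpd1, break these nucleotides down. P2ry12, Tmem119, Gpr34 and Selplg are widely used as markers of homeostatic microglia, and their expression commonly falls when microglia are activated.

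Promoter sequences of RefSeq (build GRCm38.p6, the sequence of mm10) were at hand for 5 of the 9 genes, with 7 entries in all. FOS regions of 4 calls covered the 250 bases before the transcription start of P2ry12 (180 bases covered) and of P2rx4 (160 bases covered). Among all 21263 entries of coding genes, 26.6% overlapped a FOS region and 4.79% overlapped one of 4 calls. The first start of P2rx7 had no overlapping region, but the centre of a 3-call region lay 477 bp from it. These 3 promoters are shown because FOS regions lay at or next to them, 5′ to 3′ on the strand of the gene, with matches to the searched motifs in capitals. They span chr3:59262986-59263235 (minus strand) for P2ry12, chr5:122707294-122707543 (plus strand) for P2rx4 and chr5:122643677-122643926 (plus strand) for P2rx7.
P2ry12: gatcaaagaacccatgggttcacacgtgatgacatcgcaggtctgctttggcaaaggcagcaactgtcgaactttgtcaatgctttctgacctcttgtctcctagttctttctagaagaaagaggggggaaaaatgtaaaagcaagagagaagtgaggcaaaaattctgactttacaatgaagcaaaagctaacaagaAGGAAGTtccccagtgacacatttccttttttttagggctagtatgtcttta
P2rx4: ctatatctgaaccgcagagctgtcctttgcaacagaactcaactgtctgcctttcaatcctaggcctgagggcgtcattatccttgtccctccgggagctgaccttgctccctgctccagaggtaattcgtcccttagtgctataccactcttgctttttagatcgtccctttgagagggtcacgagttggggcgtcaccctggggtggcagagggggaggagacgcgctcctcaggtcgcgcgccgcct
P2rx7: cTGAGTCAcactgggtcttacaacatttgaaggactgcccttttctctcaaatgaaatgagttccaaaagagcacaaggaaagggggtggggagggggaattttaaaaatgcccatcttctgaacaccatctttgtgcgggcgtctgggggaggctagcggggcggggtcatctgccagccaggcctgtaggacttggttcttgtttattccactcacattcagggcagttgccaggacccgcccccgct

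Matches to 3 motifs were searched on both strands of these 250 bases. The AP-1 motif TGANTCA matched 1 of the 7 entries, the first start of P2rx7, as TGAGTCA beginning 249 bases before the start. It was present in 6.13% of all entries, in 4.16% of those overlapping a FOS region and in 6.85% of those overlapping none. Among entries overlapping a 4-call FOS region its share was 6.19%. The 250 bases searched at P2ry12 and P2rx4 therefore held no match to TGANTCA. They hold only 180 bases of the 346 bp P2ry12 region and 160 bases of the 467 bp P2rx4 region. The rest of these FOS regions was not searched. The related motif TGACGTCA, which CREB and ATF dimers bind, matched none of the 7 entries and 1.92% of all entries. Its share was 3.51% of entries overlapping a FOS region, 1.87% of those overlapping a 4-call one and 1.35% of those overlapping none. AGGAAGT, a core bound by ETS factors such as PU.1, matched the P2ry12 promoter, beginning 52 bases before the start and inside the FOS region. It was chosen after the sequences had been seen and was present in 7.32% of all entries, in 14.2% of those overlapping a 4-call FOS region and in 6.33% of those overlapping none. A match is a run of letters and does not show that a factor was bound there.

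All 9 genes had FOS regions within 100 kb, as did 79.5% of the 21887 coding genes. A FOS region of 4 calls was present for 9 of 9, against 49.1% of coding genes. Inside the gene body 8 of 9 had a FOS region, P2ry13 being the exception, against 38.2% of coding genes. The IL-33 list reached 3 of the 9 (P2ry6, Tmem119 and Selplg), which each had a shared region and an IL-33-only region. Over all coding genes 14.7% had a shared region, 11.2% an IL-33-only region and 19.1% either. Since Tmem119 and Selplg share theirs, these are regions of 2 loci.

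The 9 genes occupied 6 loci, so their regions are not 9 separate sets. P2ry12 and P2ry13 lay 5388 bp apart on chromosome 3, P2rx4 and P2rx7 15181 bp apart on chromosome 5, and Tmem119 and Selplg 17401 bp apart, also on chromosome 5. Of the 110 regions, 45 lay within 100 kb of both genes of a pair. There were 98 FOS-only, 7 shared and 5 IL-33-only regions. At the edge of the 100 kb limit, the last region counted lay 99062 bp from P2ry6 with a score of 31.5, and the closest region outside all windows lay 104437 bp from Gpr34 with a score of 9.84.

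**Figure D1:**
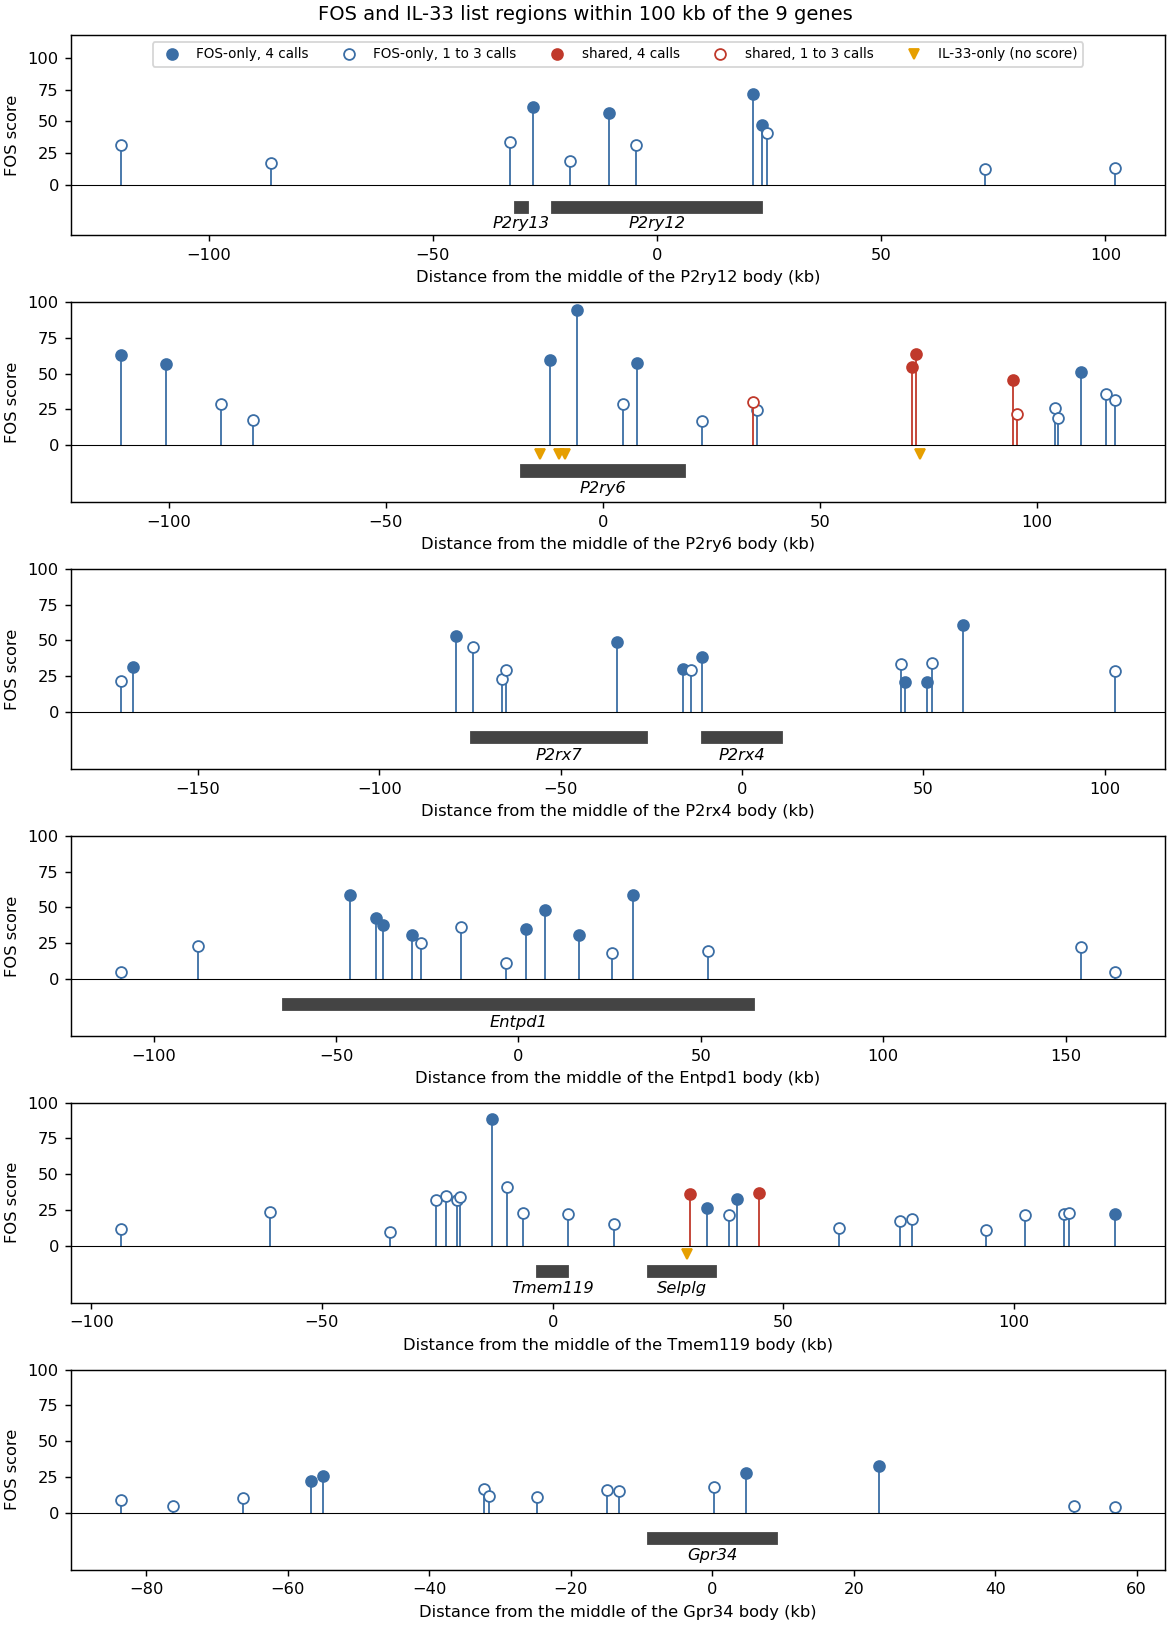
FOS score (vertical axis, authors' statistic) of each region against its distance in kb from the middle of the first-named gene, for the 6 loci. Grey bars are gene bodies, filled points have 4 calls, open points 1 to 3 calls, and triangles below the axis are IL-33-only regions without a score. Triangles appear at P2ry6 (4) and at Selplg (1), and the Gpr34 points all stay at or below 32.3.

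P2ry12 encodes the Gi-coupled ADP receptor that guides microglial processes toward injury, and P2ry13 encodes a related ADP receptor. All 12 FOS regions of this locus were FOS-only. The highest of them, at chr3:59260780-59261104, scored 71.5 with 4 calls and lay inside P2ry12, 2043 bp from its start. The start itself was covered by chr3:59262819-59263165, whose centre was 7 bp from it, with a score of 47.5 and 4 calls. Farther into the gene, regions scored 56.9 (4 calls), 31.2 (2 calls) and 18.6 (1 call). Within the body the 4-call regions were thus the highest and the single-call region the lowest. A single-call region of 41.1 lay 1200 bp before the start.

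P2ry13, whose body is 2.99 kb long, held no region but had one on each side. On the start side chr3:59211755-59212080 scored 61.2 with 4 calls, 1035 bp from the start, and on the other side a single-call region of 34.1 lay 1108 bp from the body. P2ry12 and P2ry13 both lie inside Med12l, a gene for a Mediator subunit whose body encloses them. The nearest coding gene by body distance was therefore Med12l, at distance 0, for 11 of the 12 regions. By that measure P2ry12 was nearest, jointly with Med12l, to 4 regions and P2ry13 to 0. Leaving out genes that enclose one of the 9, an alternative added after seeing the data, gave 6 and 2, and distance to the nearest transcription start gave 3 and 5. The 61.2 region thus counts for Med12l by body distance, for P2ry13 by transcription start. The 3 single-call regions of the locus all had a width of 270 bp, as did 6362 of all 12305 single-call FOS-only regions.

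P2ry6 encodes a receptor for UDP that triggers phagocytosis by microglia. It had the highest score of the 9 genes, 94.3 with 4 calls at chr7:100950468-100950847 inside the gene. This was higher than the best score of 98.4% of the 17402 coding genes with a FOS region within 100 kb. Other regions of 4 calls inside P2ry6 scored 59.3 at chr7:100944307-100944634 and 57.3 at chr7:100964236-100964598, and a single-call region scored 28.5. All 4 FOS regions inside the gene were FOS-only.

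Between the 59.3 and 94.3 regions, and just below the first of them, P2ry6 held 3 IL-33-only regions. They lay at chr7:100941865-100942365, chr7:100946356-100946856 and chr7:100947571-100948071, and their peaks were 2362, 2161 and 2839 bp from the centre of the nearest FOS peak. IL-33 list and FOS peaks thus lay side by side within P2ry6 without overlap. The 5 shared regions within 100 kb of P2ry6 were all nearest to P2ry2, the neighbouring gene for a receptor of ATP and UTP. They scored 29.8 (3 calls), 54.8, 63.5 and 45.5 (4 calls each) and 21.6 (1 call), at 15623 to 76506 bp from P2ry6. In these shared regions the closest IL-33 list peak lay 16 to 51 bp from the FOS peak. The body of P2ry2 itself held no FOS region. Within the same window, Relt, which encodes a member of the TNF receptor superfamily, had regions of 63.0 and 56.9 (4 calls each), and Fchsd2, which encodes an endocytic F-BAR protein, had 5 regions up to 51.3.

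**Figure D2:**
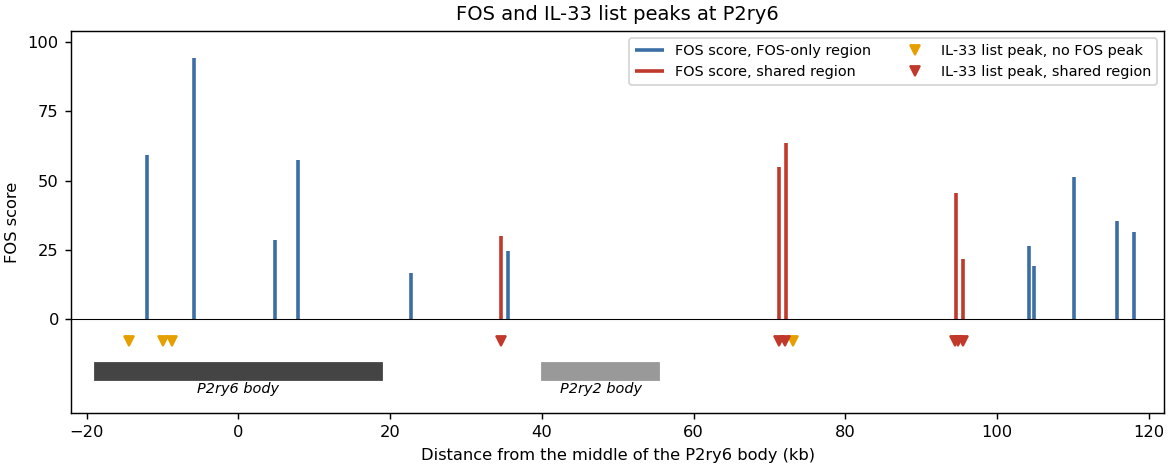
FOS score (bars) and IL-33 list peaks (triangles, no score) against distance in kb from the middle of P2ry6. Inside P2ry6 the IL-33 list peaks carry no FOS peak, and the 5 shared regions lie outside it, with scores of 21.6 to 63.5.

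P2rx4 and P2rx7 encode ATP-gated channels. P2X7 is known for driving potassium efflux, NLRP3 activation and interleukin-1 release, and P2X4 for its induction in spinal microglia after nerve injury. Their locus had 16 FOS regions, all FOS-only, and 8 of them had 4 calls. P2rx4 carried its region at the start, chr5:122707384-122707851, with a score of 38.5, 4 calls and its centre 73 bp from the start. On the side facing P2rx7, further regions scored 29.3 (1 call) at 2810 bp and 30.3 (4 calls) at 5098 bp from P2rx4. No other region lay inside P2rx4.

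P2rx7 had 4 regions inside its body and 1 outside that was nearest to it. The outside region, chr5:122639529-122639849, scored 53.3 with 4 calls, 4238 bp from the start. Inside, the scores were 45.2 (3 calls, 477 bp from the first start), 23.2 (1 call), 29.1 (2 calls) and 48.6 (4 calls, 8185 bp from the far end). The highest score within 100 kb of either gene, 61.1, lay 95 bp outside Camkk2, which encodes a calcium-dependent kinase, and 49878 bp from P2rx4. Camkk2 was nearest to 5 of the 16 regions.

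Entpd1, which encodes CD39, the ectoenzyme that converts ATP and ADP to AMP, had the most regions inside its body. That body was also the longest of the 9 genes. Of 17 FOS regions within 100 kb, 13 lay inside the 129 kb gene and all 13 were FOS-only. Among those, 8 had 4 calls, and their scores were 58.9, 42.5, 37.5, 30.5, 34.8, 48.4, 30.8 and 58.8 along increasing coordinates. The 5 other regions inside the gene scored between 10.9 and 36.0. The 58.9 and 58.8 regions of 4 calls lay at chr19:40630639-40630977 and chr19:40708141-40708516. No region lay within 1 kb of either end, and the nearest FOS centre was 18442 bp from the first annotated start and 1526 bp from the second. The 4 regions outside the gene scored 4.55 to 23.0 and were nearest to Aldh18a1 or Ccnj.

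Tmem119 encodes a membrane protein used as a marker that separates microglia from infiltrating macrophages. Selplg encodes PSGL-1, a ligand of P-selectin on leukocytes. Their common locus had the most FOS regions of the 6, 25 in all, and 6 had 4 calls. The densities were 10.6 FOS regions per 100 kb of window for Tmem119 and 11.2 for Selplg, against a median of 1.90 over coding genes. The region over the end of Tmem119 at higher coordinate, chr5:113800221-113800556, scored 22.2 with 3 calls and was centred 8 bp from that end. The other regions nearest to Tmem119 scored 41.1 (1 call, 6530 bp away) and 22.9 (2 calls, 3055 bp away). None of its 3 nearest regions had 4 calls.

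The highest score of this locus, 88.3 with 4 calls at chr5:113783660-113783981, lay between Iscu and Tmem119. It was 5532 bp from Iscu, the gene of a scaffold protein for iron-sulphur clusters, and 9909 bp from Tmem119, so that Iscu was its nearest coding gene. Selplg held a shared region, chr5:113826657-113827195, with a FOS score of 36.3 and 4 calls, in which the FOS and IL-33 list peaks were 122 bp apart. An IL-33-only region, chr5:113826020-113826520, lay next to it, its peak 539 bp from the same FOS peak. Another region inside Selplg was FOS-only with a score of 26.6 and 4 calls. The second shared region of the locus, at 37.0 with 4 calls, was 597 bp outside Coro1c, a gene of an actin-binding protein, and 9314 bp from Selplg. The shared region inside Selplg was the only one of the 110 that was both shared and nearest to one of the 9 genes.

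Gpr34, the gene of a receptor for lysophosphatidylserine, lies on the X chromosome inside Cask, which encodes a synaptic scaffold protein. Its 15 regions were all FOS-only, with a median score of 15.0 and a highest score of 32.3. That highest region lay in the neighbouring receptor gene Gpr82, 14417 bp away. Inside Gpr34, regions scored 27.5 (4 calls) at chrX:13636348-13636717 and 17.7 (2 calls). By body distance Gpr34 was nearest, jointly with Cask, to 2 regions, and with enclosing genes left out to 10. Scores on the X chromosome were lower in general: the median was 11.0 over 858 FOS regions of the X chromosome and 20.6 over 30610 regions of the autosomes. Among 4-call regions these medians were 17.8 and 36.1. The share of regions with 4 calls was 20.9% on the X chromosome and 23.0% on the autosomes. The 4 regions of 4 calls near Gpr34 scored 22.0, 25.7, 27.5 and 32.3, all above the median of X-chromosomal regions of 4 calls. Its best score exceeded that of 46.1% of all coding genes with a FOS region, but of 92.8% of the 545 such genes on the X chromosome. The part of the chromosome in the low scores of Gpr34 was not tested further.

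**Figure D3:**
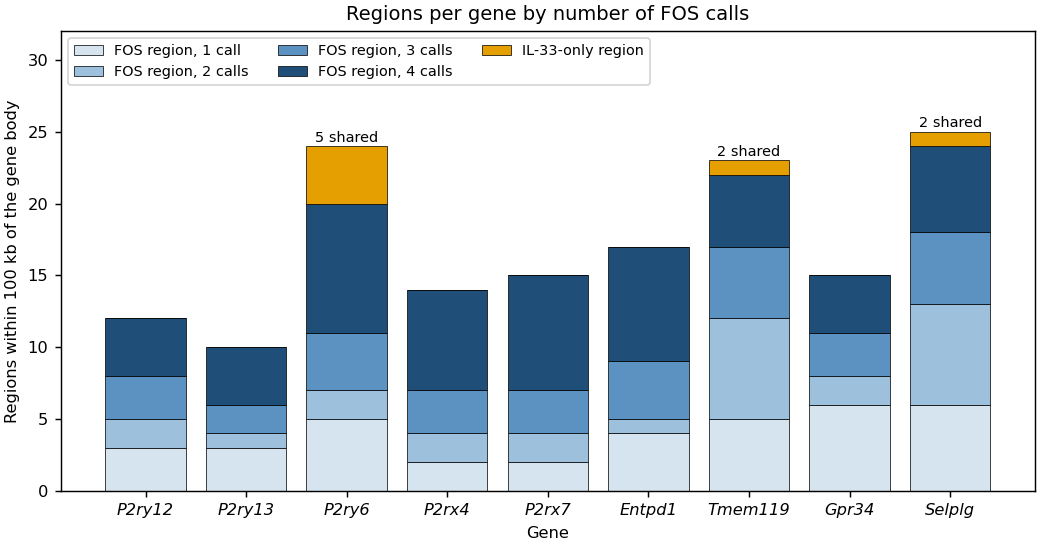
Number of regions within 100 kb of each gene (vertical axis), stacked by number of FOS calls, with IL-33-only regions on top and the number of shared regions written above. P2ry6 and Selplg have the tallest bars, 24 and 25 regions, and P2ry13 the shortest, 10; genes of a pair share most of their regions.

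Set beside all genes, the 9 genes had a median of 15 FOS regions within 100 kb, against 5 over all coding genes. Their median best score was 71.5, against 33.9 over the 17402 coding genes with a FOS region. Best scores were ordered from P2ry6 (94.3) through Tmem119 and Selplg (88.3 each), P2ry12 and P2ry13 (71.5 each), P2rx4 and P2rx7 (61.1 each) and Entpd1 (58.9) to Gpr34 (32.3). For 6 of the 9 genes the best region was nearer to another coding gene. Restricted to regions nearest to the gene itself, the order became P2ry6 (94.3), P2ry12 (71.5), Entpd1 (58.9), P2rx7 (53.3), Tmem119 (41.1), P2rx4 (38.5), Selplg (36.3) and Gpr34 (27.5), and P2ry13 had none. Without error between mice, neighbours in these orders cannot be told apart. A FOS region within 1 kb of a body end was present for 4 of the 9 (P2ry12, P2rx4, P2rx7 and Tmem119), against 33.1% of coding genes.

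**Figure D4:**
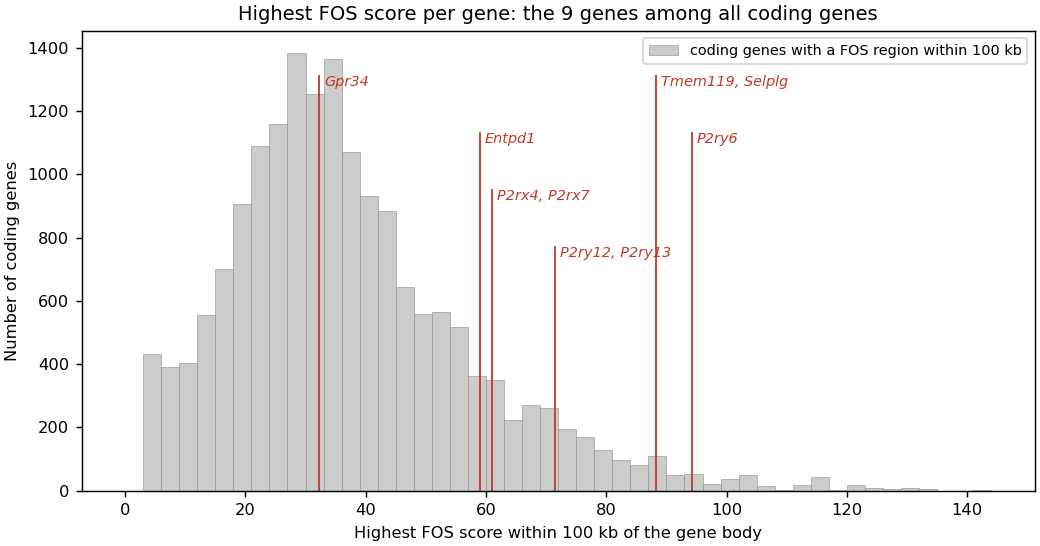
Distribution of the highest FOS score within 100 kb over the 17402 coding genes with a FOS region (grey bars, number of genes), with the 9 genes marked by red lines. Gpr34 at 32.3 stands near the middle and the other 8 at 58.9 or above.

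Of the 105 FOS regions around the 9 genes, 39 had 4 calls (37.1%, exact Clopper-Pearson 95% interval 27.9 to 47.1), against 22.9% of all 31473 FOS regions. The interval covers counting error only and treats regions as independent, which neighbouring regions need not be. A score of 50 or more was reached by 16 of the 105 (15.2%, 8.97 to 23.6), against 5.19% of all FOS regions. Shared regions were 7 of 105 (6.67%, 2.72 to 13.3), close to the 4.92% among all FOS regions. Of the 12 regions of the IL-33 list around the 9 genes, 7 held a FOS peak (58.3%, 27.7 to 84.8), against 54.4% in the whole table. Median scores at 1, 2, 3 and 4 calls were 18.7, 21.3, 26.7 and 45.5 around the 9 genes and 12.4, 19.4, 24.7 and 35.7 over all FOS regions. Regions nearest to one of the 9 genes had 4 calls in 21 of 40 (52.5%) and a median score of 31.0. Those in the same windows but nearest to another gene had 4 calls in 18 of 65 (27.7%) and a median of 22.7. These include 4-call regions counted for the enclosing Med12l, of 47.5 at the P2ry12 start and 61.2 next to P2ry13. With enclosing genes left out, 56 regions of any class, in place of 44, were nearest to one of the 9 genes. The shares were not recomputed for that setting. Inside the gene bodies 18 of 31 FOS regions had 4 calls, with a median score of 34.8. Entpd1 supplied 13 of the 31 and 8 of the 18. The share inside the bodies of all coding genes was not computed. Of the 25 FOS-only regions of a single call, 12 had a width of 270 bp, 4 of 274 bp, 3 of 302 bp and 6 of 320 bp. Among all 12305 such regions of the table these widths numbered 6362, 1558, 970 and 3415, so the mix was much alike.

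**Figure D5:**
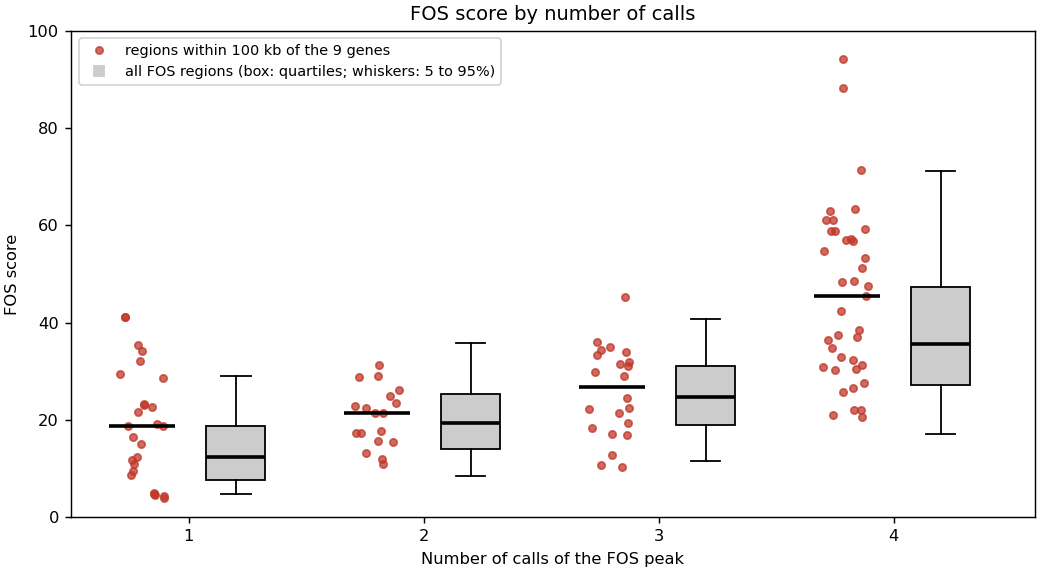
FOS score (vertical axis) by number of calls (horizontal axis), with each region around the 9 genes as a red point and all FOS regions as grey boxes; black lines are medians. At 4 calls the medians are 45.5 and 35.7.

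The other genes of nucleotide signalling were taken from a list of 32 receptors, ectoenzymes and transporters. Of these, 30 had a FOS region within 100 kb, 22 one of 4 calls and 17 one inside the body. Over all coding genes these shares were 79.5%, 49.1% and 38.2%. P2ry1, an ADP receptor, and Entpd4, an intracellular nucleotidase, had no FOS region within 100 kb. Ada, the gene of adenosine deaminase, stood highest at 135, but its body held no FOS region, so that region lay outside the gene. Shared regions were near P2ry2 (5, the same as those of P2ry6) and Adora2a (2), the gene of an adenosine receptor coupled to Gs. These were 2 of the 32 genes, against 14.7% of coding genes. Nt5e, which encodes CD73, the enzyme acting after CD39, had 4 FOS regions up to 24.3, none of 4 calls. P2ry14, the gene of a UDP-glucose receptor, lay in the same cluster as P2ry13, and its best score of 61.2 was the P2ry13 region. The median best score was 34.6 over the 30 genes of the list with a FOS region. It was 71.5 for the 9 genes and 33.9 for all coding genes with a FOS region.

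A list of 30 further homeostatic microglia genes had FOS regions within 100 kb of all 30, of 4 calls for 29 and inside the body for 24. The shares over all coding genes were again 79.5%, 49.1% and 38.2%. The median best score of this list was 62.5. High best scores were those of Itgam (128), Cx3cr1 (126) and Tgfbr1 (109). Shared regions were present for 14 of the 30, against 14.7% of coding genes. Among them were Itgam (4), Tgfbr1, Irf8 and Slc2a5 (2 each), and Cx3cr1, Gpr84, Siglech, Mef2c, Mertk, Lag3, Golm1, Trem2 and Adgrg1 (1 each). By counts of FOS-only regions of 1 to 3 calls and of 4 calls, shared and IL-33-only regions, the 62 genes of both lists were compared with Selplg, which had 18, 4, 2 and 1. The most similar were Itgam (16, 5, 4 and 1) and Gpr84 (15, 3, 1 and 1), each at a summed difference of 5, and Slc2a5 (12, 3, 2 and 1) at 7.

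The labelled cell type was set beside marker genes, of which ChIP-seq shows binding and not expression. Of 8 microglia markers, all also on the homeostatic list, 8 had a 4-call FOS region within 100 kb and 6 had a FOS region inside the body. For neurons these counts were 2 and 0 of 8, for astrocytes 1 and 3 of 6 and for oligodendrocytes 5 and 1 of 6. They were 2 and 2 of 6 for monocytes or neutrophils, 6 and 3 of 6 for border macrophages and 4 and 1 of the 5 lymphocyte markers matched. Over all coding genes the shares were 49.1% and 38.2%. Median best scores were 96.5 for microglia markers and 17.0 to 36.3 for the other lists. Markers without a FOS region have no score and are left out of these medians. The medians thus cover 6 neuron, 4 astrocyte, 5 oligodendrocyte and 4 monocyte or neutrophil markers. A window of 100 kb can hold regions nearer to another gene. The oligodendrocyte marker Mobp and the microglia marker Cx3cr1 had the same best score, 126, and the same number of IL-33-only regions, 7. The part of other cells in the regions around the 9 genes was not tested.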

How the data were processed

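The deposited table was made by the authors with mergePeaks of HOMER, per the file headers. The submitters' processing notes name Bowtie2, HOMER, mm10 and GRCm38; how peaks were called, and whether against the inputs, is not given there. The deposited score is a statistic averaged by the merge, and the deposited count of merged peaks was used to restore it in shared regions. Positions are printed as deposited. Gene bodies of 21887 protein-coding genes on 21 chromosomes came from RefSeq (GRCm38.p6). A region was set against each gene by the distance from its centre to the gene body, and the nearest gene was the one at the smallest distance, several where bodies overlapped. Starts came from the RefSeq promoter table. Python 3.11.15, pandas 2.3.3 and scipy 1.17.1 were used. Simulated regions placed inside gene bodies were all recovered there, with the right nearest gene and restored score. Counts in the 100 kb windows were not tested in this way. The simulated scores were averaged with zeros, so that assumption was not tested either. No test between groups was possible, so values are descriptions, with exact 95% intervals for shares. The 9 genes, the lists of purinergic, homeostatic and cell type genes and the rule for naming genes (all 9, listed genes with a shared region, the 5 highest scores of the lists, the genes of most similar counts) were chosen with earlier results of these data known. Nt5e, P2ry14, P2ry1 and Entpd4 were named after their values were seen. Some listed genes that this rule names are not reported here.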

Additional observations from a re-analysis of the deposited data

How the results depend on the processing

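No paired analysis was possible because the table holds no value per library, and for the same reason no mouse could be left out. With a window of 10 kb in place of 100 kb, FOS-only regions numbered 46 in place of 98, shared regions 2 in place of 7, 4-call regions 25 in place of 39 and genes with a shared region 1 (Selplg) in place of 3. At 10 kb the best scores were 61.2 for P2ry13, 38.5 for P2rx4, 53.3 for P2rx7, 27.5 for Gpr34 and 37.0 for Selplg. At 50 kb there were 3 shared regions. With regions nearest to the genes only, there were 39 FOS-only, 1 shared and 21 4-call regions and 1 gene with a shared region. The best scores were then 38.5 for P2rx4, 53.3 for P2rx7, 41.1 for Tmem119, 27.5 for Gpr34 and 36.3 for Selplg, and P2ry13 gave no value. Distance to the transcription start made one of the genes nearest to 29 regions in place of 44, with starts at hand for 5 of the 9 genes. Fewer regions follow from the construction of these settings. The other 35 comparisons stayed within 1.5 times for counts and unchanged for best scores, including FOS peaks of 2 or more calls, scores at or above the median of 20.2, peak centres within 100 bp and the deposited score. Depth is unknown, so a region that is missing may lie below detection.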

Other observations

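Of the 110 regions, 66 were nearest only to neighbours of the 9 genes when enclosing genes were counted. Coro1c, whose product binds actin filaments, was nearest to 9 FOS regions, of which 2 had 4 calls and 1 was shared, with a highest score of 37.0. P2ry2 was nearest to 6 FOS regions with a highest score of 63.5, and 5 of the 6 were shared. Camkk2 had 5 FOS regions with 3 of 4 calls, and Iscu had 4 with 1 of 4 calls. Of the genes enclosing a receptor gene, Med12l overlapped 11 of the FOS regions in the 100 kb windows, with a median score of 34.1. Cask overlapped 15 of them, with a median of 15.0. A further FOS region nearest to Cask, with a score of 9.84, lay outside the window of Gpr34 and is not counted.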
